A study of Rattus norvegicus with 44 samples.

Results

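The genes described are 48 DNA repair genes of the rat, chosen by name and grouped by the lesion they act on: 19 of recombination and the Fanconi anemia pathway, 4 of mismatch repair, 9 of nucleotide excision repair, 10 of base excision and strand break repair, 5 of end joining and 1 of direct reversal. An Affymetrix rat genome array carries probe sets, groups of short probes that together read 1 transcript. A gene was followed through probe sets that name it and no other gene. By that rule 44 of the 48 genes had a probe set (59 probe sets of 31099 on the array), and 43 had one bright enough to be tested. No probe set was assigned here to Rad51d, Fancg, Fanci or Neil3, and Xrcc3 was too dim to be tested, with log2 values between 4.89 and 5.48 on the arrays of the high concentrations. The array as a whole names 14217 genes in this way, of which 9136 were tested.

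Cells repair DNA by pathways that divide the work by the kind of damage. Homologous recombination copies an intact sister strand to mend a break through both strands, and the Fanconi proteins bring it to strands that are cross-linked to each other. Mismatch repair corrects copying errors, nucleotide excision cuts out a short stretch around a bulky lesion, base excision removes single altered bases, and end joining seals broken ends directly. Recombination proteins are made mainly by cells that are copying or have copied their DNA. The liver clears many reactive compounds, and its cells use these pathways against the damage that such compounds leave in DNA. Metals reach these pathways in different ways: hexavalent chromium is reduced inside cells and binds DNA, while nickel and cadmium bind weakly to DNA and are known to displace zinc or iron from proteins.

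RNA came from H4-II-E-C3, a cell line derived from a rat hepatoma, after 24 h without metal or with NiCl2 (40, 140 or 400 µM), Na2Cr2O7 (0.275, 1 or 10 µM) or CdCl2 (0.2, 0.55 or 1.2 µM), here the low, middle and high concentrations of nickel, chromium and cadmium. There were 4 biological replicates of each of the 9 exposures, which makes 36 exposed arrays, and 8 control arrays, 2 in each replicate. By the study's methods all flasks were washed free of serum before exposure, the exposure medium held no serum, and the 3 concentrations of a metal were set by cell viability, from no observed death to a concentration that killed a large share of the cells. The control and exposed cells thus share the cell line and the lack of serum, and the metals are compared at concentrations of like toxicity and not of like molarity.

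The condition of an array was not taken from the title it carries. The titles were listed in the order of the series, the 4 titles of repeated arrays were moved to the end, and each array in turn received the next title. By this order 22 of the 44 arrays keep their condition and replicate and 22 do not, among them all but 16 of the 36 exposed arrays. All control, nickel and chromium arrays of replicates 1 and 2 have the same condition either way, so these arrays alone bear on nickel and chromium without the reordering. The cadmium results rest on it. Counts with the titles as they stand are given beside the results. The 4 repeated arrays, made again from the same RNA, are by this order nickel at the middle and high concentrations and chromium at the low concentration in replicate 4, and cadmium at the middle concentration in replicate 2.

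The values are log2 expression values that the authors made by RMA, a method that subtracts background, equalizes the arrays and summarizes the probes of a set. The median of an array lay between 5.93 and 6.0. Hepatocyte transcripts were present as the label requires: Alb, the albumin gene, had a median of 14.56 over all arrays and Hnf4a, a liver transcription factor, 10.58. Of 9 hepatocyte markers 7 were tested, Apoa1 (5.47) was below the limit for testing and Tf had no probe set here. Leukocyte, macrophage, endothelial and bile duct markers with a probe set were all below that limit, among them Ptprc at 4.59, Cd68 at 5.5 and Pecam1 at 4.62. Of the stellate or fibroblast markers Des and Col1a1 were below it, and Acta2, an actin of contractile cells, was above it (median 6.43, highest 7.19). As these are cultures in which cells died, fewer cells that make a transcript and less of the transcript per cell cannot be told apart.

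A gene was called higher or lower where limma gave an adjusted p under 0.05 against control, in a fit of each metal with concentration and replicate as terms. At the high concentration of chromium 18 of the 43 tested repair genes were called higher and 7 lower, against 26.4% and 20% of all tested genes. At the high concentration of nickel it was 3 higher and 18 lower, against 22.2% and 19.1% of all tested genes. At the high concentration of cadmium it was 12 higher and 1 lower, against 29.2% and 10.5%. For cadmium the share of repair genes called higher was thus near that of all genes, and the share called lower was below it. The share called higher in chromium and lower in nickel was above that of all genes. Whether any of these shares differs from that of other groups of genes was not tested. The repair genes were chosen with earlier results of these data known, so the shares are no independent finding. With arrays taken by their own titles, limma called 0 of 42 tested repair genes for any of the 9 exposures. At the high concentration of each metal 4 had an unadjusted p under 0.05 from limma, with no share of all genes given. Over replicates 1 and 2 alone, where order and titles give the same arrays, it was 16 higher and 6 lower in chromium and 5 higher and 17 lower in nickel.

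**Figure D1:**
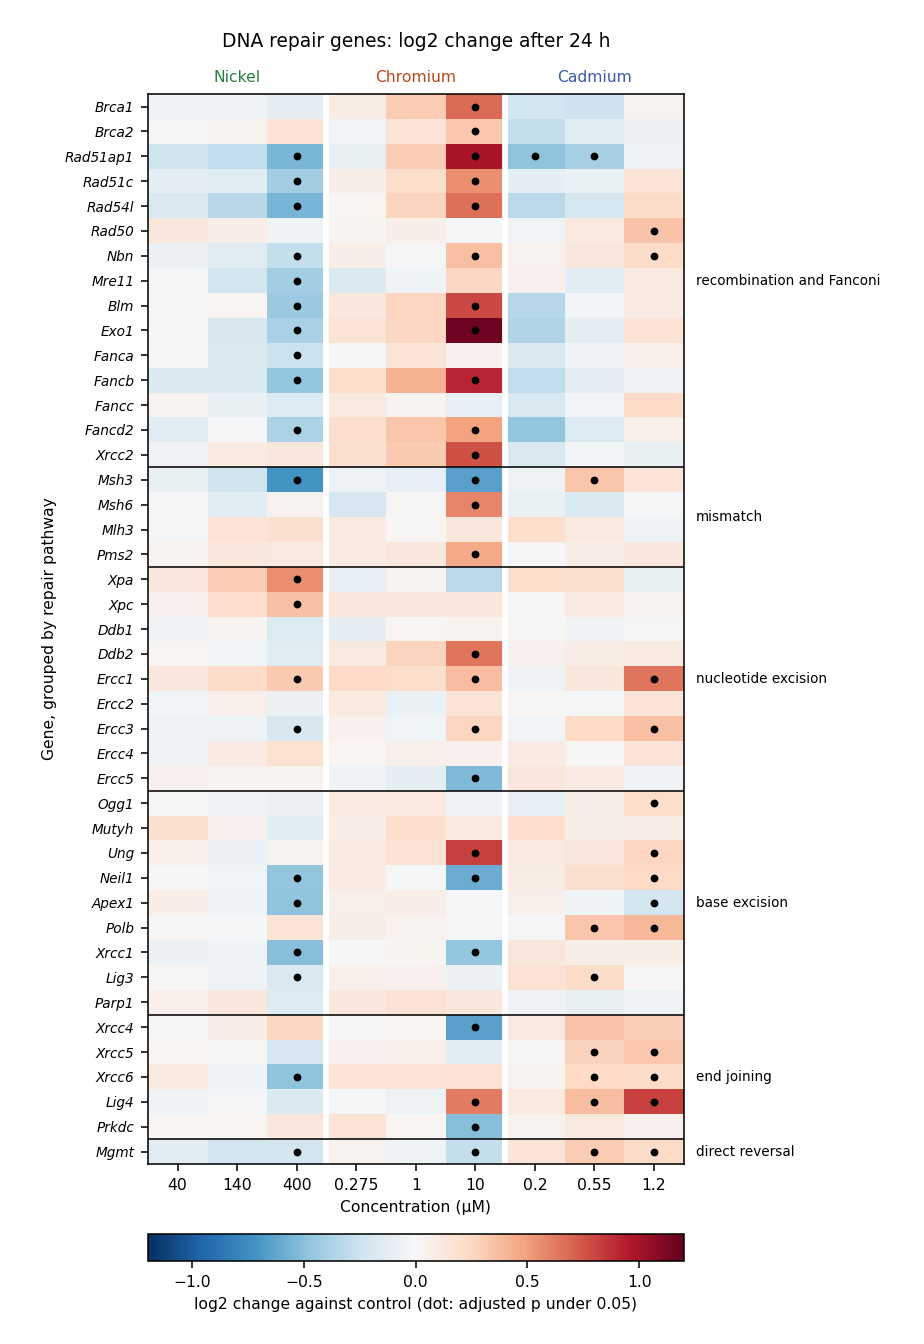
Each row is 1 of the 43 tested repair genes, grouped by pathway, and each column 1 exposure (concentration in µM). Colour gives the log2 change against control from blue (lower) to red (higher), and a dot marks an adjusted p under 0.05 from limma. The recombination and Fanconi block is mostly red at 10 µM chromium (11 of 15 genes with a dot) and mostly blue at 400 µM nickel (10 of 15), and 3 of the 5 end joining genes have a dot at 1.2 µM cadmium.

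Genes of recombination and the Fanconi pathway were higher with chromium. At 10 µM, 11 of the 15 tested genes rose and 0 fell, with a median log2 change of 0.56, where the median of all tested genes was 0.03. Of all tested genes 26.4% were called higher there and 20% lower. Exo1, a nuclease that trims broken ends back to single strands and also serves mismatch repair, had control values from 6.7 to 7.67 with a median of 7.47. At 10 µM chromium its 4 arrays read 8.53, 8.51, 8.61 and 8.44. All 4 lay above the highest control, and the change was 1.17 on the log2 scale (standard error 0.1, adjusted p = 2.63e-06 from limma), the largest among the tested repair genes in any exposure.

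Rad51ap1 encodes a protein that helps to pair the broken strand with its copy. Its controls ran from 6.54 to 7.04 (median 6.9) and its arrays at 10 µM chromium read 7.89, 7.54, 8.24 and 7.68. Again no array overlapped the controls (log2 change 0.99, standard error 0.12, adjusted p = 1.9e-05 from limma). Fancb, a subunit of the Fanconi core complex, read 5.89 to 6.34 in controls (median 6.07) and 7.02, 6.93, 7.01 and 7.01 with 10 µM chromium (log2 change 0.91, standard error 0.1, adjusted p = 1.61e-05). Exo1, Rad51ap1 and Fancb were the repair genes that also passed the study's stricter criterion, an FDR of at most 0.001 for the concentration variable together with a 1.8-fold change, which 3.21% of all tested genes passed in chromium. In nickel and cadmium 0 repair genes passed that criterion in limma, against 1.94% and 1.95% of all genes. At the high concentration 27 and 17 repair genes had an unadjusted p under 0.05 from limma. These counts were not set against the share of all tested genes at that threshold.

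Blm encodes the helicase that dissolves joined recombination intermediates. It read 6.86 to 7.31 in controls (median 7.07) and 7.99, 7.9, 7.76 and 7.81 at 10 µM chromium. Rad54l, a motor protein of strand exchange, read 5.71 to 6.48 in controls (median 6.27) and 6.97, 6.8, 7.0 and 6.84. Brca1, which steers breaks into recombination, read 5.53 to 6.0 in controls (median 5.8) and 6.36, 6.43, 6.7 and 6.37. In none of the 3 did an exposed array overlap the controls, and the log2 changes were 0.79, 0.66 and 0.68 (standard errors 0.08, 0.07 and 0.08). Xrcc2, which acts in strand exchange, rose by 0.76 (standard error 0.12), from 6.51 to 6.9 in controls to 7.42, 7.34, 7.65 and 7.48. The other genes that rose were Rad51c (0.56), which acts with Xrcc2 in this step, Fancd2 (0.48), the protein that the core complex modifies, Nbn (0.36), a subunit of the complex that detects breaks, and Brca2 (0.32), which acts after Brca1 in recombination. Mre11, Rad50, Fanca and Fancc had log2 changes from -0.1 to 0.25 and were not called. Rad50 and Mre11 are partners of Nbn in the same complex.

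**Figure D2:**
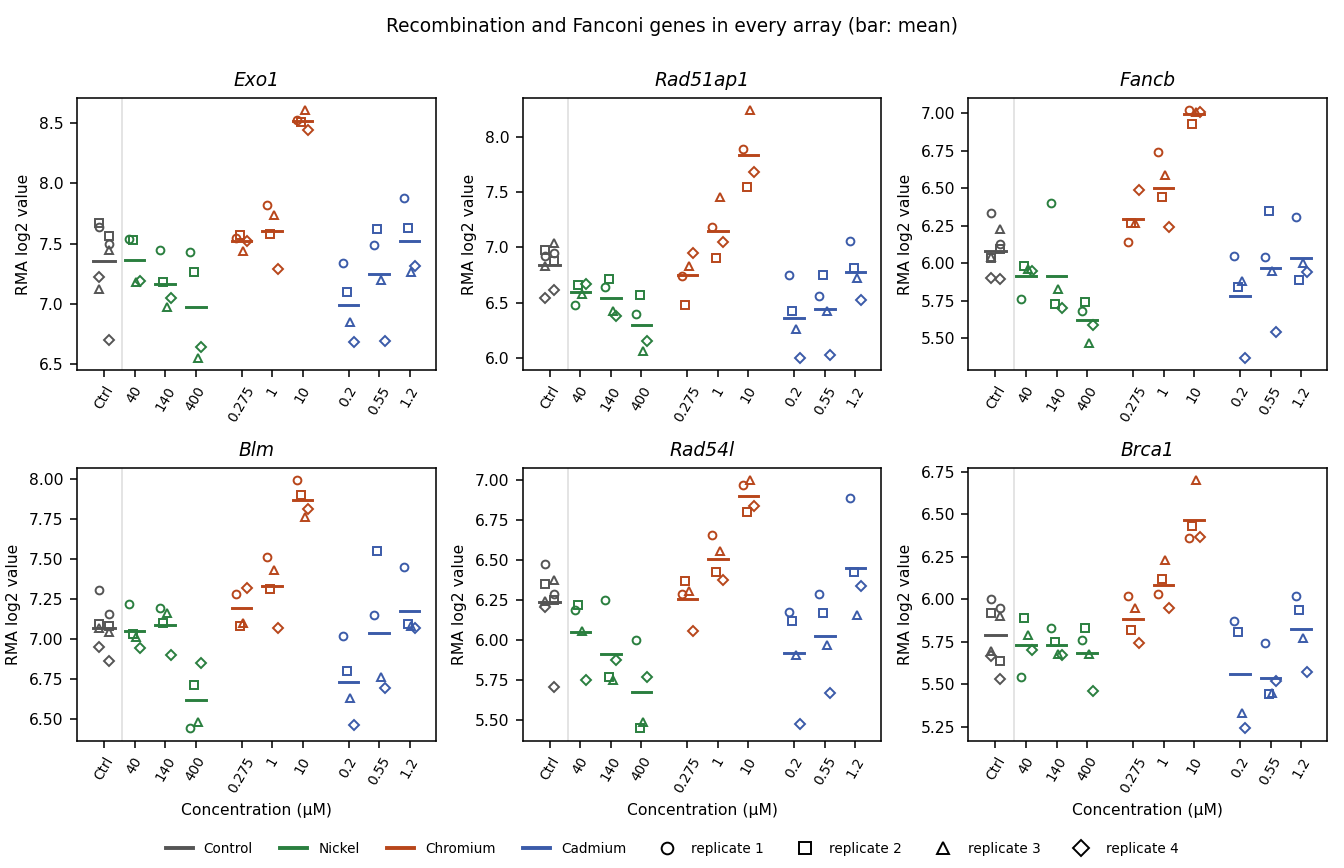
RMA log2 values of 6 recombination and Fanconi genes in every array, by concentration in µM, with 1 symbol per replicate and a bar at the mean. At 10 µM chromium all 4 arrays of Exo1, Rad51ap1, Fancb, Blm, Rad54l and Brca1 lie above all 8 controls, and at 400 µM nickel the means of all 6 lie below the control mean.

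At the middle concentration of chromium limma called 0 of the 43 repair genes, where 0.0547% of all tested genes were called. An unadjusted p under 0.05 from limma was found for 14, which was not set against the share of all tested genes at that threshold. At this concentration 13 of the 15 recombination and Fanconi genes had a positive log2 change, with a median of 0.25 and a range from -0.04 to 0.42. These changes share the same control arrays, so their signs are not independent. They were not set against the share of all tested genes with a positive change. Fancb read 6.74, 6.44, 6.59 and 6.24, higher than its own replicate's control in 4 of 4, and Exo1 read 7.82, 7.58, 7.74 and 7.29, higher in 3 of 4. Both sets overlap the controls. At the low concentration 0 repair genes were called in limma (0% of all genes), with 2 at an unadjusted p under 0.05, again without the share of all genes.

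With nickel most of the same 15 genes were lower. At 400 µM 10 of the 15 genes fell and 0 rose, with a median log2 change of -0.38, where the median of all tested genes was near 0. Of all tested genes 19.1% were called lower there and 22.2% higher. Further genes of these pathways, given below, were called in both directions with nickel. Rad54l read 6.0, 5.45, 5.49 and 5.77 (log2 change -0.56, standard error 0.12, adjusted p = 0.00211 from limma) and Rad51ap1 6.4, 6.57, 6.06 and 6.15 (-0.55, standard error 0.09, adjusted p = 0.000616). Both were below their own replicate's control in 4 of 4 arrays, but the pooled ranges of nickel and control arrays overlap. Blm (6.44, 6.71, 6.48 and 6.85), Fancb (5.68, 5.74, 5.47 and 5.59), Mre11 (6.17, 6.4, 6.47 and 6.28) and Rad51c (6.25, 6.18, 6.06 and 6.3) lay below all 8 controls in every array. Exo1, Fancd2, Nbn and Fanca also fell, by 0.39, 0.38, 0.29 and 0.26 on the log2 scale. Brca1, Brca2, Rad50, Fancc and Xrcc2 were not called, with log2 changes from -0.16 to 0.17.

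Of the 9 repair genes called lower with nickel and higher with chromium, 8 belong to this group (Rad51ap1, Rad51c, Rad54l, Nbn, Blm, Exo1, Fancb and Fancd2) and the other is Ercc3. These calls share their control arrays, so the difference of the metals was tested by itself in 1 fit of all conditions. In chromium against nickel 24 repair genes were higher and 5 lower (26.5% and 21.3% of all tested genes). In the recombination and Fanconi group it was 12 higher and 0 lower, with a median difference of 0.79. The difference was 1.55 for Exo1 (standard error 0.12, adjusted p = 3.35e-12 from limma), 1.54 for Rad51ap1, 1.37 for Fancb, 1.24 for Blm and 1.22 for Rad54l. With arrays by their own titles, 4 repair genes differed between these metals.

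With cadmium 2 of the 15 genes rose at the high concentration, Rad50 and Nbn, and 0 fell, beside 29.2% and 10.5% of all tested genes. The median log2 change of the group was 0.1. Rad50 encodes the long coiled subunit that tethers broken ends. It read 7.47 to 7.85 in controls (median 7.66) and 8.14, 8.02, 7.88 and 7.86 at 1.2 µM cadmium, all above the highest control (log2 change 0.34, standard error 0.06, adjusted p = 0.000725 from limma). A further probe set of Rad50 had a change of 0.15 (adjusted p = 0.22). Rad51ap1 was the 1 repair gene called at 0.2 µM cadmium, where 0.613% of all genes were called. Its arrays there read 6.75, 6.42, 6.26 and 6.0, below the own control in 4 of 4 (log2 change -0.48, standard error 0.09, adjusted p = 0.0276), and at 0.55 µM it was lower by 0.40 (adjusted p = 0.0127). At 1.2 µM it was not called. Without replicate 3 or without replicate 4, 0 genes were called at 0.2 µM, and without the replicate term also 0.

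In chromium against cadmium at the high concentrations 16 repair genes were higher and 13 lower (18.4% and 28.5% of all tested genes), and 10 of the 16 were recombination and Fanconi genes. Exo1 differed by 1.0 and Rad51ap1 by 1.06. In nickel against cadmium 3 repair genes were higher and 29 lower (15.1% and 31.7% of all tested genes), 12 of the lower ones in this group. Without replicate 1 it was 3 higher and 18 lower.

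Genes that serve DNA copying and cell division were counted beside the recombination genes. The shares of all tested genes called higher and lower were 26.4% and 20% in chromium, 22.2% and 19.1% in nickel, and 29.2% and 10.5% in cadmium. Of 18 tested genes of S phase, such as the MCM helicase genes and Pcna, the sliding clamp, 17 rose and 0 fell at 10 µM chromium, with a median log2 change of 1.01. Cdt1, which licenses origins, changed by 1.89 and Mcm6 by 1.33. With 400 µM nickel 1 rose and 12 fell, with a median of -0.37, and Tyms, which makes thymidylate, changed by -0.95. With 1.2 µM cadmium 8 rose and 0 fell, with a median of 0.16. Of 14 genes of mitosis, 10 were higher in chromium, 1 higher and 7 lower in nickel, and 5 lower in cadmium. The part of these in the changes of the repair genes was not tested.

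Promoters of repair genes are shown because 11 recombination and Fanconi genes and 17 of the 18 copying genes rose at 10 µM chromium. E2F factors, which switch on genes for DNA copying, bind short sites that begin with a run of T and end in G and C. RefSeq promoters of the assembly GRCr8, 250 bases before and 50 bases from the start site, were found for 40 of the repair genes. They were searched on both strands for TTTCCCGC, TTTGGCGC, TTTGGCGG and TTTCCCGG, 4 words of 8 letters. TTTCCCGG can overlap its own reverse, and a gene was counted once however many matches it held. Of 27457 genes with such a promoter, 959 (3.49%) hold at least 1 of these. Among the repair genes it was 5 of 40, namely Rad51d, Rad50, Fancc, Fancd2 and Msh6, and 4 of the 16 recombination and Fanconi genes with a promoter here. It was 2 of 14 among the repair genes higher at 10 µM chromium, 2 of 16 among those tested and not called there, and 0 of 6 among those lower. Fancd2 and Msh6 are the ones with a match, in capitals, and Exo1 and Rad51ap1, which changed the most, are shown beside them and hold none of these words in this window.
Exo1, chr13:90341768-90342067, plus strand: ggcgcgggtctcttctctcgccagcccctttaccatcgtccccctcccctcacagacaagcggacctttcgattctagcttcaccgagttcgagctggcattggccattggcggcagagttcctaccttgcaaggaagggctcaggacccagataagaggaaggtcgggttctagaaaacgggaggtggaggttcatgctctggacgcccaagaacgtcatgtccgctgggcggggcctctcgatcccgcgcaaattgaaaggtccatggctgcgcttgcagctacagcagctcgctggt
Rad51ap1, chr4:161458510-161458809, minus strand: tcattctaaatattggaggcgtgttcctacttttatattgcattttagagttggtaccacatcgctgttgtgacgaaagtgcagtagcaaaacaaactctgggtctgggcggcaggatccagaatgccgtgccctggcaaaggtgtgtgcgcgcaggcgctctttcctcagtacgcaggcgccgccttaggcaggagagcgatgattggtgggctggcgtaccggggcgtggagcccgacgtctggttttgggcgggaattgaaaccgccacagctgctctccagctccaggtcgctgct
Fancd2, chr4:148234458-148234757, plus strand: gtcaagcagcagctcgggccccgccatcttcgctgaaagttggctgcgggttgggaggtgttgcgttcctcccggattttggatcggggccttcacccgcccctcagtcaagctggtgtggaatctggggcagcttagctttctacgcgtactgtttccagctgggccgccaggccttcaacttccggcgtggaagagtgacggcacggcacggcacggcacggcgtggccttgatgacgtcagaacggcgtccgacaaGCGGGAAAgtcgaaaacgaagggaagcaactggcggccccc
Msh6, chr6:12333456-12333755, minus strand: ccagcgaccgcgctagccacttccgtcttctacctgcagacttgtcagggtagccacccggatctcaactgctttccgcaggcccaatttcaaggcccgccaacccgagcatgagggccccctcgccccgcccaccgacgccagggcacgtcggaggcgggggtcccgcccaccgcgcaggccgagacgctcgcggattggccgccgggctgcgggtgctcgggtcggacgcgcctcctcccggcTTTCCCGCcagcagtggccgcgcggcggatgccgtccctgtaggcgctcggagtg
A match is a stretch of letters and no measured site. Other spellings of such sites were not searched, so the lack of a match is not the lack of a site. Fancd2 has GCGGGAAA with its first base 10 bases from the start site, and Msh6 has TTTCCCGC with its first base at -5.

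In mismatch repair the subunits of the recognition proteins went in opposite directions with chromium. Msh6, which reads single mispaired bases, had control values of 8.83 to 9.12 (median 9.01). At 10 µM chromium it read 9.51, 9.36, 9.77 and 9.72, all above the controls (log2 change 0.59, standard error 0.17, adjusted p = 0.013 from limma). Msh3, which competes with Msh6 for the same partner and reads larger loops, had control values of 6.27 to 6.69 (median 6.48). At 10 µM chromium it read 5.86, 6.17, 5.59 and 5.73, all below the controls (-0.65, standard error 0.1, adjusted p = 0.000235).

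Msh3 was also the repair gene with the largest fall in nickel, with 5.46, 5.65, 5.77 and 6.17 at 400 µM (log2 change -0.72, standard error 0.11, adjusted p = 0.000288 from limma). All 4 lay below the controls. With cadmium it was called higher at 0.55 µM alone, with 6.9, 6.72, 6.95 and 6.68 (0.33, adjusted p = 0.0295). The difference was -0.8 for chromium against cadmium (adjusted p = 1.61e-05) and -0.87 for nickel against cadmium (adjusted p = 4.13e-06). Pms2, a subunit of the nicking enzyme, rose in chromium, from 7.49 to 7.99 in controls to 8.2, 8.25, 8.24 and 8.1 (0.45, standard error 0.08, adjusted p = 0.000349). Mlh3 was called in no exposure. Of the other mismatch genes Pms1 was tested, with 0.40 in chromium and -0.27 in nickel, both called.

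In nucleotide excision repair 3 of 9 genes were higher and 1 lower with nickel, beside 22.2% and 19.1% of all tested genes. The difference between this group and the recombination genes was not tested. Xpa, which checks that a lesion is present and holds the assembly together, read 6.16 to 6.74 in controls (median 6.44) and 7.06, 6.74, 6.89 and 7.36 at 400 µM nickel. These lay above their own controls in 4 of 4 and above the highest control in 3 of 4 (log2 change 0.56, standard error 0.1, adjusted p = 0.000949 from limma). Xpc, the first sensor of distorted DNA, read 8.85, 8.83, 8.86 and 8.78 against 8.38 to 8.63 in controls (0.35, standard error 0.06). In chromium neither was called, and the difference of chromium and nickel was -0.87 for Xpa (adjusted p = 2.58e-05) and -0.21 for Xpc (adjusted p = 0.0106).

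Ercc1, a subunit of the nuclease that makes the cut on the upstream side, was the 1 repair gene called higher with each metal at the high concentration. Control arrays read 7.01 to 7.59 (median 7.35). They read 8.06, 7.84, 7.93 and 7.98 with cadmium, 7.74, 7.65, 7.65 and 7.67 with chromium, and 7.77, 7.56, 7.4 and 7.75 with nickel. The log2 changes were 0.64 (standard error 0.11, adjusted p = 0.000364 from limma), 0.37 (adjusted p = 0.00463) and 0.31 (adjusted p = 0.00933). Cadmium and chromium arrays lay above all controls and nickel arrays overlapped them. Its partner Ercc4 was not called with any metal. The difference was -0.27 for chromium against cadmium (adjusted p = 0.035) and -0.33 for nickel against cadmium (adjusted p = 0.0107).

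Ddb2, which finds ultraviolet lesions, read 7.17, 7.26, 7.23 and 6.97 at 10 µM chromium against 6.39 to 6.6 in controls (0.64, standard error 0.07, adjusted p = 1.91e-05 from limma). A further probe set of Ddb2 did not rise there (-0.21, adjusted p = 0.0848), so the rise holds for 1 of its probe sets. In nickel that further probe set was called lower (-0.49, adjusted p = 0.00451) and the brighter one was not called (-0.15). Ercc5, the nuclease that cuts on the other side of the lesion, read 6.91, 6.79, 6.5 and 6.6 against 7.1 to 7.4 in controls and fell by 0.53 (adjusted p = 0.000629). Ercc3, a helicase of the transcription factor TFIIH, was lower in nickel (-0.19, adjusted p = 0.045) and higher in chromium (0.26, adjusted p = 0.0372) and cadmium (0.36, adjusted p = 0.00832). Without replicate 3 its cadmium change was 0.29 (adjusted p = 0.102). Ddb1, Ercc2 and Ercc4 were called with no metal at the high concentration.

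**Figure D3:**
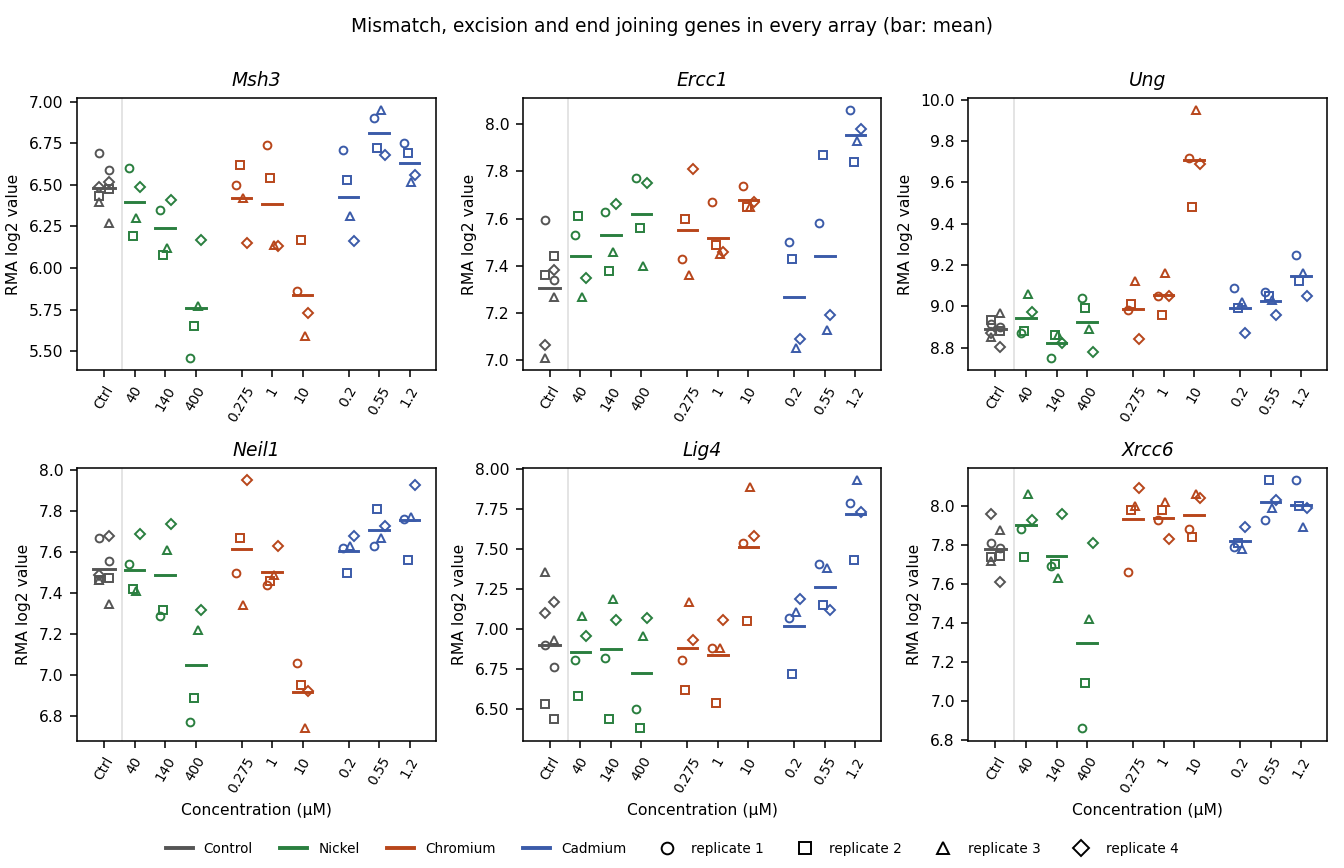
RMA log2 values of 6 genes of mismatch, excision and end joining repair in every array, by concentration in µM, with 1 symbol per replicate and a bar at the mean. Msh3 and Neil1 are below all controls at the high concentrations of nickel and chromium, Ung is highest at 10 µM chromium, and Ercc1 and Lig4 have their highest means at 1.2 µM cadmium.

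In base excision repair 1 gene stood out in chromium. Ung, the glycosylase that removes uracil from DNA, read 8.8 to 8.97 in controls (median 8.89) and 9.72, 9.48, 9.95 and 9.69 at 10 µM chromium (log2 change 0.82, standard error 0.07, adjusted p = 2.56e-06 from limma). It was also higher at 1.2 µM cadmium, with 9.25, 9.12, 9.16 and 9.05 (0.26, standard error 0.05, adjusted p = 0.00105). No exposed array overlapped the controls in either. Chromium stood above cadmium by 0.56 (adjusted p = 4.33e-08).

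Neil1, a glycosylase for oxidized bases, went the other way with chromium. It read 7.35 to 7.68 in controls (median 7.48), 7.06, 6.95, 6.74 and 6.92 with 10 µM chromium and 6.77, 6.89, 7.22 and 7.32 with 400 µM nickel. All of these lay below the controls (log2 changes -0.6 and -0.47, standard errors 0.09 and 0.1, adjusted p = 0.000138 and 0.00233 from limma). With 1.2 µM cadmium it read 7.76, 7.56, 7.77 and 7.93 and was called higher (0.24, adjusted p = 0.0176). That call was lost without replicate 3 (0.20, adjusted p = 0.153) and without replicate 4 (0.20, adjusted p = 0.122), and in 1 fit over all conditions (adjusted p = 0.0549). The difference of chromium and cadmium was -0.84 (adjusted p = 2.49e-08).

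Xrcc1, the scaffold on which single-strand breaks are sealed, was lower in nickel (7.83, 8.17, 7.81 and 7.54) and in chromium (8.05, 7.9, 7.82 and 7.81) than in controls (8.14 to 8.62, median 8.3). The log2 changes were -0.51 (adjusted p = 0.000259 from limma) and -0.46 (adjusted p = 0.00061). Apex1, the endonuclease that cuts at sites without a base, read 11.06 to 11.16 in controls and 10.27, 10.54, 10.79 and 10.86 with nickel (-0.48, standard error 0.08, adjusted p = 0.000673). It was the 1 repair gene lower with 1.2 µM cadmium (10.89, 10.89, 10.85 and 10.89, log2 change -0.22, adjusted p = 0.00488), and with chromium it read 11.1, 11.07, 11.1 and 11.05. Lig3, the ligase that binds Xrcc1, was lower in nickel (-0.18), where a further probe set was not called (-0.2, adjusted p = 0.208). In chromium the further one was called lower (-0.32, adjusted p = 0.0249) and the brighter one was not (-0.07).

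Polb, the polymerase that fills the gap, rose with cadmium, from 8.48 to 8.82 in controls to 9.08, 8.93, 9.13 and 9.22 (0.40, standard error 0.1, adjusted p = 0.00592 from limma). A further probe set of Polb fell there (-0.19, adjusted p = 0.0148), and the mean of both gave 0.10 (adjusted p = 0.211), so no direction can be given for the gene. In nickel the further probe set was called higher (0.34, adjusted p = 0.00516) and the brighter one was not (0.15). Ogg1, which removes oxidized guanine, rose with cadmium by 0.21 (standard error 0.06, adjusted p = 0.0159), with 7.74, 7.7, 7.82 and 7.78 against 7.4 to 7.67. Mutyh and Parp1 were called with no metal at the high concentration.

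In end joining 3 of 5 genes rose and 0 fell with cadmium, where 29.2% of all tested genes were called higher and 10.5% lower. The median log2 change was 0.29 beside 0.08 for all tested genes, and whether these 5 genes differ from others was not tested. Lig4, the ligase of this pathway, read 6.44 to 7.36 in controls (median 6.92) and 7.79, 7.43, 7.93 and 7.73 at 1.2 µM cadmium, all above the controls. Its log2 change of 0.82 (standard error 0.09, adjusted p = 2.09e-05 from limma) was the largest of any repair gene with cadmium where each gene is read by its brightest probe set. A further probe set of Lig4 changed by 0.26 (adjusted p = 0.0513), and the mean of both gave 0.54, less than the 0.64 of Ercc1, so the order rests on 1 of the probe sets. At 10 µM chromium Lig4 read 7.54, 7.05, 7.89 and 7.58 (0.61, standard error 0.08, adjusted p = 7.23e-05), higher than the own control in 4 of 4. With nickel it was not called (-0.17, standard error 0.07), while the further probe set was called lower (-0.27, adjusted p = 0.0255). The difference of nickel and cadmium was -0.99 (adjusted p = 2.98e-10), and that of chromium and cadmium was not called (-0.2, standard error 0.09, adjusted p = 0.0721).

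Transcripts of Xrcc5 and Xrcc6, which encode the Ku proteins that cap broken ends, also rose with cadmium. Xrcc5 read 8.56, 8.49, 8.47 and 8.53 against 8.0 to 8.33 in controls (0.32, standard error 0.07, adjusted p = 0.00202 from limma), with no overlap. Xrcc6 read 8.13, 8.0, 7.89 and 7.99 against 7.61 to 7.96 (0.22, standard error 0.06, adjusted p = 0.013). In nickel Xrcc6 read 6.86, 7.09, 7.42 and 7.81 and was called lower (-0.48, standard error 0.13, adjusted p = 0.00828). The array of replicate 3 lay closer to the controls. That of replicate 4 lay among them, between the control arrays of its own replicate (7.609 and 7.959), and shows no fall. The call in limma was lost without replicate 1 (-0.33, adjusted p = 0.0701) and without replicate 2 (-0.43, adjusted p = 0.0808).

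With chromium, Xrcc4 and Prkdc of the same pathway were called lower and Lig4 higher, beside 20% and 26.4% of all tested genes. Xrcc4, the partner of Lig4, read 5.91, 5.3, 4.99 and 5.5 against 5.76 to 6.48 in controls, below the own control in 4 of 4 (-0.65, standard error 0.1, adjusted p = 0.000114 from limma). These chromium values lie near or below the limit for testing (5.914). A dimmer probe set of Xrcc4, below that limit, changed by 0.05. Prkdc, the kinase that Ku recruits, read 7.4, 7.32, 7.05 and 7.24 against 7.62 to 7.9 (-0.51, standard error 0.09, adjusted p = 0.000508). In chromium against cadmium 3 of the 5 end joining genes were lower (Xrcc4 -0.94, Prkdc -0.56, Xrcc5 -0.47) and 0 higher. Of all tested genes 28.5% were lower and 18.4% higher in that comparison, and whether these 5 genes differ from others was not tested.

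Mgmt, which takes alkyl groups off guanine and stands for direct reversal, was called with all 3 metals. It read 9.95 to 10.34 in controls (median 10.23), 10.09, 10.05, 9.67 and 10.1 with nickel, 10.03, 10.0, 9.74 and 9.83 with chromium, and 10.4, 10.3, 10.4 and 10.6 with cadmium. The log2 changes were -0.22 (adjusted p = 0.0104 from limma), -0.29 (adjusted p = 0.011) and 0.23 (adjusted p = 0.0491), each in the same direction in 4 of 4 arrays. Nbn, Ercc1, Ercc3, Neil1 and Mgmt were the repair genes called with all 3 metals at the high concentration, and only Ercc1 moved one way in all of them.

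**Figure D4:**
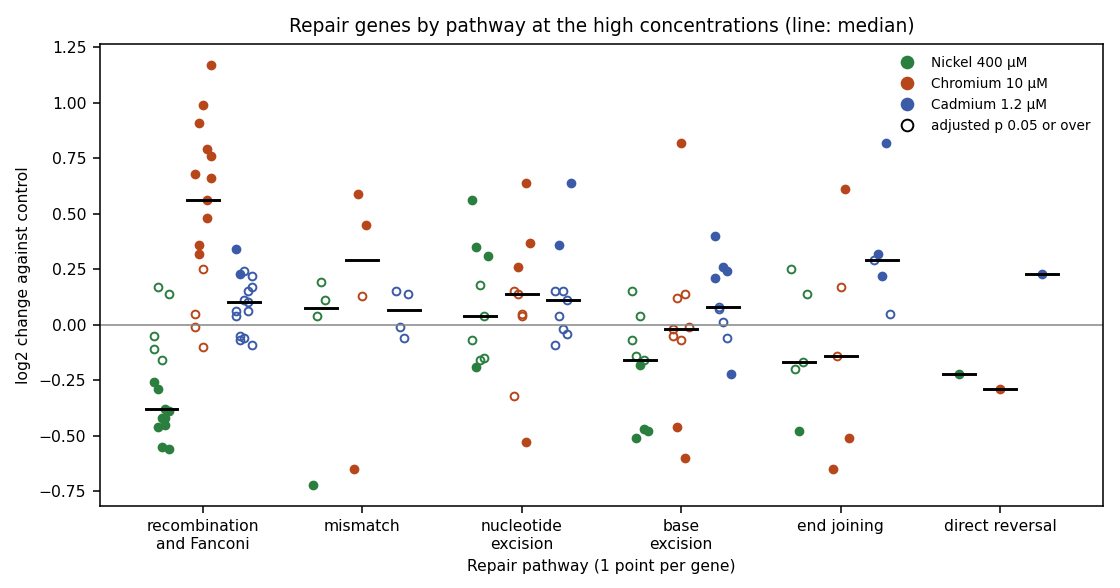
Log2 change against control at the high concentration of each metal, with 1 point per tested repair gene and a line at the median of the pathway. Filled points have an adjusted p under 0.05 from limma. In recombination and Fanconi the medians are 0.56 with chromium, -0.38 with nickel and 0.1 with cadmium, and in end joining the median is highest with cadmium at 0.29.

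At the middle concentration of cadmium 7 repair genes were higher and 1 lower, against 10.4% and 2.23% of all tested genes. The higher ones were Lig4 (0.37), Msh3 and Polb (0.33 each), Mgmt (0.30), Xrcc5 (0.28), Xrcc6 (0.24) and Lig3 (0.22), and 3 of these serve end joining. Each was read from its brightest probe set. The further probe sets of Lig4, Polb, Xrcc5 and Lig3 are not given at this concentration. At the high concentration the probe sets of Polb went opposite ways. Leaving out 1 replicate lowered the count from 8 to between 0 (without replicate 3) and 3, and without the replicate term it was 0. At the high concentration it fell from 13 to 8 without replicate 3 and without replicate 4. At the low and middle concentrations of nickel 0 repair genes were called in limma, with 3 and 9 at an unadjusted p under 0.05. Of all tested genes 0% were called at the low, and 2.76% higher and 0.854% lower at the middle concentration. These shares are for the adjusted p, and none is given for the unadjusted counts.

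Brca1, Fancb and Rad54l reached the limit for testing in 2, 3 and 4 of the 10 conditions, among them the high concentration of chromium, in which they rose. A gene that is tested because it is bright in 1 condition is likely to differ there. With all probe sets kept, which adds Xrcc3, 17 repair genes were higher and 7 lower in chromium, 3 and 16 in nickel, and 11 and 1 in cadmium. The recombination and Fanconi counts were then 11 higher and 0 lower of 16 in chromium and 0 and 10 in nickel.

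Further genes of the same pathways, listed by name and not among the 48, were counted for each high concentration. Of 14 further recombination and Fanconi genes 6 were called higher and 2 lower in chromium, 4 and 4 in nickel, and 5 and 2 in cadmium. The shares of all tested genes were 26.4% and 20%, 22.2% and 19.1%, and 29.2% and 10.5%, and no count of these or the next lists was tested against them. Ube2t and Usp1, the enzymes that add ubiquitin to Fancd2 and remove it, rose in chromium (1.01 and 0.97) and fell in nickel (-0.59 and -0.47). Rad52, an annealing protein, rose with all 3 metals (0.93 in nickel, 0.48 in chromium and 0.64 in cadmium), and Fancl, the ubiquitin ligase of the core complex, fell with all 3 (-0.56, -0.52 and -0.48). The other genes called higher in nickel were Mus81 (0.48), Rmi1 (0.32) and Uimc1 (0.21), and the other gene called lower in chromium was Wrn (-0.53). Calls in nickel were thus split evenly, beside 0 higher and 10 lower among the 15 members.

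Of 15 genes that signal DNA damage 10 rose and 0 fell in chromium, among them Clspn (1.11), an adaptor of the checkpoint kinase, and Mdc1 (0.63), which gathers repair proteins at breaks. In nickel 1 rose and 4 fell, among them Timeless (-0.82), which steadies the replication fork, and in cadmium 3 rose and 1 fell. Of 13 further nucleotide excision genes 5 rose in chromium, 3 in nickel and 3 in cadmium, and 0 fell in each, with higher calls at 26.4%, 22.2% and 29.2% of all tested genes. Lig1, the ligase that also joins copied strands, rose in chromium (0.86), and Mnat1, a TFIIH subunit, rose in nickel (0.65) and cadmium (0.54). Of 8 further base excision genes 4 were higher and 1 lower in chromium (Fen1, the flap nuclease, 0.86), 2 and 2 in nickel, and 4 and 0 in cadmium (Aptx, which clears failed ligation ends, 0.58).

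Of 6 further end joining genes 1 rose in chromium, 2 fell in nickel and 2 rose in cadmium, where 26.4%, 19.1% and 29.2% of all tested genes were called in those directions. Nhej1, the factor that aligns the Lig4 complex, changed by -0.61 in nickel and 0.73 in cadmium. Alkbh1, Alkbh2 and Alkbh3, of a family of oxidative demethylases, all rose in chromium (0.67, 0.31 and 0.47) and in cadmium (0.41, 0.30 and 0.77). In nickel Alkbh1 and Alkbh3 rose (0.46 and 0.25).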

How the data were processed

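RNA of 44 arrays was measured. The authors made the deposited log2 values from scanner intensities by RMA in Partek software, for all arrays together. RMA draws arrays toward 1 distribution and compresses small signals. In place of the detection calls of the methods, probe sets were ranked by their dimmest array in the condition where that array was brightest, and the top 16026 were tested (log2 value 5.914 or above).

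Conditions followed the order described in the report. By that order, condition means lay within 7.5e-06 of the log2 ratios the study tabulates for 992 probe sets (median difference 2.95e-06), against a median of 0.164 by the titles. That table was made from the same arrays and is no independent check. The replicate numbers within a condition are not settled by it.

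Each metal was fitted with limma 3.58.1 in R 4.3.3 (lmFit, eBayes), with concentration and replicate as terms, after the dose and batch terms of the methods. The 2 control arrays of a replicate were averaged, as separate cultures are not stated. Metals were compared in 1 fit of all 10 conditions. P-values were adjusted by Benjamini and Hochberg over all tested probe sets. A gene was read from its brightest probe set, and shares of all genes were counted in the same way. The replicate numbers come from the titles. After the condition means were removed, arrays of 1 replicate correlated at a mean r of 0.249 to 0.464 with each other and at -0.177 to -0.102 with the others.

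Genes described were, per metal, the 8 largest changes among those called at the high concentration and, per pathway, the 3 largest changes; others were named beside them. The members and lists were chosen with earlier results of these data known. The fit was tested on simulated data for the high concentration of chromium, with 50 of 16026 probe sets changed at each size. Of log2 changes of 0.25, 0.5, 1.0 and -1.0 it recovered 18%, 82%, 100% and 98%, and it called 3 unchanged probe sets. A small change that was not called may thus have been missed. Far fewer probe sets were changed than were called in the data, so these shares need not hold there. Of the probe sets, 20826 name 1 gene, 436 several and 9780 none. The number of arrays limits the precision. Alternatives are given in the closing section.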

Additional observations from a re-analysis of the deposited data

Results flagged for a closer look

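Within each group of 4 arrays, the gap of the farthest array from its neighbour was set against the range of the group, for the 26 genes described. In 3 of 78 groups the ratio passed Dixon's critical value, where chance alone gives about 1 in 20. Msh3 at 10 µM chromium had a ratio of 0.926, because replicate 2 lay 0.29 below its control on the log2 scale (-0.29) and the others between -0.78 and -0.74. Pms2 at 1.2 µM cadmium had a ratio of 0.898, with -0.07 in replicate 2 and 0.20 to 0.23 in the others. Apex1 at 10 µM chromium had a ratio of 0.842, with 0.02 in replicate 1 and -0.03 to -0.02 in the others, all of them small.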

How the results depend on the processing

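No change of a described gene checked at the high concentrations reversed its direction under any alternative run. Of 136 alternative counts of repair genes, 110 were equal to the value reported or within 1.5 times of it. The equal ones include counts of 0 against 0 at low and middle concentrations. With arrays by their own titles the counts went to 0 for nickel, chromium and cadmium at the high concentration, for cadmium at the low and middle concentrations, and for chromium and nickel against cadmium, and to 4 for chromium against nickel. All 23 changes of described genes that could be computed lost their call there. Over replicates 1 and 2, 16 of 16 such changes kept theirs. With the 8 control arrays as separate samples the count was 4 instead of 0 for the middle concentration of nickel, 1 instead of 0 for that of chromium, and 4 and 13 for the low and middle concentrations of cadmium. Without the 4 repeated arrays it was 2 for the middle concentration of chromium and 5 for the low concentration of cadmium. The causes were not tested. With no replicate block the counts were 0 at the low and middle concentrations of cadmium, 16 for nickel, 22 for chromium and 12 for cadmium at the high concentrations, and it changed none of the 24 calls of described genes checked at the high concentrations. Leaving out each replicate in turn gave 0 to 2 genes at the low, 0 to 3 at the middle and 8 to 17 at the high concentration of cadmium, 16 to 23 for nickel, 22 to 25 for chromium, and 21 to 31 for nickel against cadmium (21 without replicate 1). Other filters, array medians, an ordinary analysis of variance and the mean of all probe sets, run for the high concentrations and the differences between metals alone, moved none of those counts by over 1.5 times. For cadmium no fit over replicates 1 and 2 was made, as 2 of its arrays in replicate 2 have another condition by title. Dim genes are limited by signal over background: Brca1, Fancb and Rad54l lie near the limit for testing in most conditions. Msh3 and Xrcc4 reached that limit in 8 and 7 of the 10 conditions.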
